A study of Mus musculus with 9 samples.

Results

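miR-143-3p (MIMAT0000247) and miR-145a-5p (MIMAT0000157) are the main mature products of a pair of neighbouring miRNA hairpins that are best known from smooth muscle. They were picked as a known cluster by their miRBase identifiers, with no threshold on a measured value, and are 2 of the 876 mature miRNAs with at least 1 count in this series of mouse serum libraries. miR-143-3p was counted in all 9 libraries. miR-145a-5p was counted in the 6 control and beads-depleted libraries and had no count in the 3 RNase H-depleted libraries.

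The hairpins are transcribed together as a cluster, and in the wall of vessels and hollow organs the cluster is switched on by serum response factor and its coactivator myocardin. Both miRNAs favour the contractile state of smooth muscle cells over the growing state, miR-145 by lowering the transcription factor Klf4 and miR-143 by lowering Elk1. They belong to different seed families and so bind different sites in messenger RNAs. Other mesenchymal cells also make them, and serum collects RNA from many tissues and from blood cells during clotting, so a count in serum names no cell of origin. Release by fewer cells and less release per cell cannot be told apart in such samples.

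Both hairpins lie on the minus strand of mouse chromosome 18 in build GRCm38, the build named for the deposited counts. GENCODE M21 places Mir143 at 61649196 to 61649258 and Mir145a at 61647825 to 61647894, with 1301 bases between them. Neither overlaps another annotated gene. The nearest neighbours are long non-coding RNA genes, Carmn on the same strand 366 bases beyond Mir143, and Bvht on the plus strand 352 bases beyond Mir145a.

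All libraries came from healthy male and female 129/SVj mice aged 2 to 9 months, whose sera had been mixed into pools named A, B and C. The RNA of each pool was split into a fraction left untreated (control), a fraction freed of 5′ tRNA-half fragments with biotinylated DNA probes and streptavidin beads (beads), and a fraction treated with such probes and RNase H, which cuts RNA paired to DNA (RNase H). No animal differed in genotype or received a treatment between groups, and the compared libraries are fractions of the same RNA. The methods describe aliquots of serum mixed from 3 mice, so the spread between pools may be technical only, and p-values then measure that spread.

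The depth for miRNAs differed strongly between the protocols. The control libraries held 205185 to 330676 miRNA counts, the beads-depleted libraries 1822088 to 1995956, and the RNase H-depleted libraries 1199 to 2040. A level is given here as counts per 1000000 miRNA counts of the same library (CPM), with exact (Clopper-Pearson) 95% intervals for single libraries. These intervals cover counting error only, because the reads carry no molecular identifiers. No pair of libraries within a group agreed within sampling noise, with a chi-square per degree of freedom of at least 1.41 over miRNAs.

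In libraries of untreated serum, miR-143-3p was among the more often counted miRNAs. It had 1407 counts in control A, 2660 in control B and 1964 in control C. These counts correspond to 6857, 8044 and 7897 CPM, a mean of 7600 ± 647 (SD, n = 3), or 0.760% ± 0.0647 (SD, n = 3) of the miRNA counts. Control A was the lowest, and the spread between pools, with a coefficient of variation of 8.51%, was larger than the 2.27% that counting error alone would give. miR-143-3p took place 27, 23 and 22 by count in control A, B and C, and the miRNAs above it held between 82.4% and 86.4% of the miRNA counts.

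miR-145a-5p was counted far less often although its hairpin sits in the same cluster. It had 34 counts in control A, 52 in control B and 40 in control C, which correspond to 166, 157 and 161 CPM. The mean was 161 ± 4.24 (SD, n = 3). The 3 levels were closer together than counting error would usually place them, with a coefficient of variation of 2.63% against 15.7% from counting error. It took place 112, 112 and 113 by count. The miRNA next above it in the control mean stood at 169 CPM and the one next below it at 160 CPM.

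**Figure D1:**
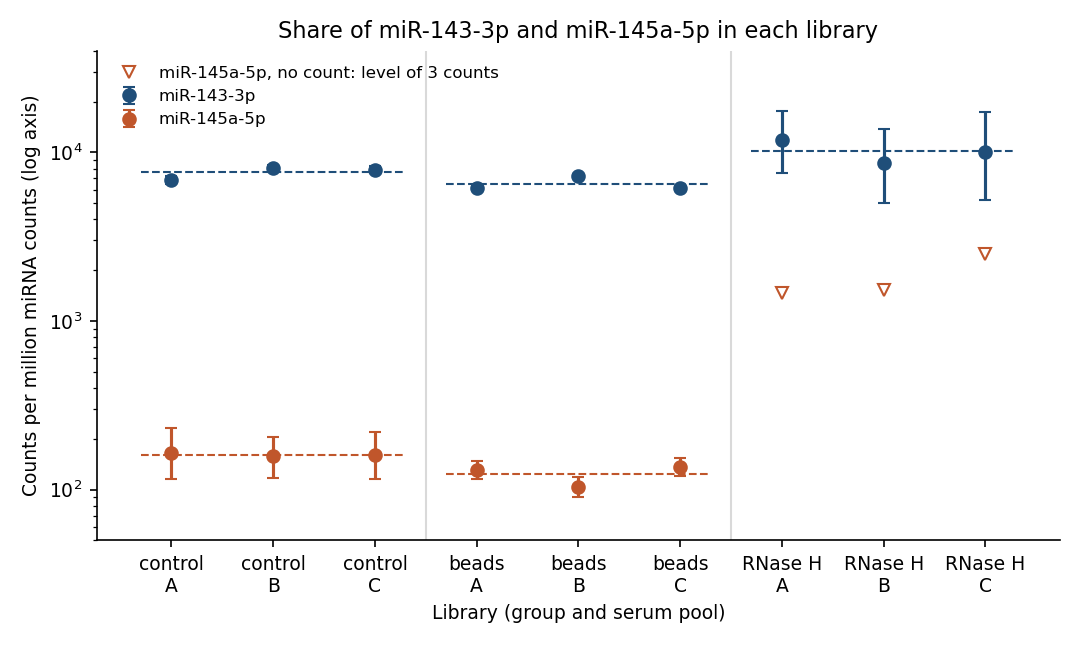
Level of miR-143-3p (blue) and miR-145a-5p (orange) in each library, in CPM on a log axis, by group and serum pool. Points are single libraries with exact 95% intervals, dashed lines are group means, and open triangles mark the level of 3 counts in libraries without a count of miR-145a-5p. miR-143-3p stands at 6099 to 8044 CPM in control and beads-depleted libraries, and miR-145a-5p at 104 to 166 CPM.

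The first comparison asks whether depletion with beads kept the relative level of the cluster while it raised the number of miRNA counts. Both miRNAs gained counts. miR-143-3p had 11902 counts in beads A, 14513 in beads B and 11113 in beads C, or 12509 ± 1780 on average where the control libraries averaged 2010 ± 628 (SD, n = 3 each). Within the pools this was 8.46 times the control count in A, 5.46 times in B and 5.66 times in C. miR-145a-5p had 252, 208 and 248 counts in beads A, B and C, or 236 ± 24.3 on average where the control libraries averaged 42 ± 9.17 (SD, n = 3 each). Within the pools this was 7.41, 4 and 6.2 times the control count, so pool A gained most for both miRNAs. Per 1000000 counts of all annotated small RNAs, miR-143-3p went from 460 ± 108 to 3961 ± 1083 and miR-145a-5p from 9.66 ± 1.31 to 73.2 ± 2.76 (SD, n = 3 each).

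As a share of the miRNA counts, miR-143-3p fell slightly after depletion with beads. Its levels were 6178, 7271 and 6099 CPM in beads A, B and C, a mean of 6516 ± 655 (SD, n = 3). The groups overlapped, since beads B lay above control A, but each beads-depleted library lay below the control library of its own pool. The share was 0.901 times that of control in pool A (exact 95% interval 0.852 to 0.953), 0.904 times in pool B (0.867 to 0.942) and 0.772 times in pool C (0.736 to 0.811). edgeR's quasi-likelihood test over 307 miRNAs gave it a log2 fold change of -0.22 with an SE of 0.071, at an adjusted p = 0.00923. The median over all tested miRNAs was 0.043, and 24.8% of them had a lower fold change than miR-143-3p. Of these 307 miRNAs, 26.7% passed the threshold of 0.05 in either direction and 10.1% passed it as lowered, so a call of this kind was common.

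The call for miR-143-3p was fragile. It was lost when any of control B, control C, beads A or beads C was left out (edgeR adjusted p = 0.178, 0.0642, 0.0827 and 0.116), when pool B or pool C was left out of both groups (edgeR adjusted p = 0.0528 and 0.221), and without a filter on low counts (edgeR adjusted p = 0.155). Its direction was also set by the scale. With all annotated counts as the library size its log2 fold change was 3.10 and the median of all tested miRNAs 3.37. miR-16-5p (MIMAT0000527) is an abundant miRNA of blood that the study followed as reported to be stably expressed in serum. By RT-qPCR the study found it reduced after both protocols, most with RNase H. Its share of the miRNA counts was also lower with both protocols than in control, in every pool. Values relative to it therefore also carry this fall of the reference. On this scale miR-143-3p was higher with beads in 2 of 3 pools, with a mean log2 difference of 0.12 (exact permutation p of 0.6).

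miR-145a-5p had a lower share of the miRNA counts with beads in every pool, but the difference did not pass the test. Relative to miR-16-5p it was higher with beads in 2 of 3 pools, with a mean log2 difference of -0.047 (exact permutation p of 1), so the pattern of every pool held for the miRNA share and not on that scale. Its levels were 131, 104 and 136 CPM in beads A, B and C, a mean of 124 ± 17.1 (SD, n = 3). Every beads-depleted library lay below every control library, a pattern that 16.0% of the tested miRNAs shared. The share was 0.789 times that of control in pool A (exact 95% interval 0.550 to 1.17), 0.663 times in pool B (0.487 to 0.916) and 0.846 times in pool C (0.604 to 1.21). The interval excluded equal shares in pool B alone. edgeR gave a log2 fold change of -0.37 with an SE of 0.18 (adjusted p = 0.111), and 15.3% of the tested miRNAs had a lower one. Beads B stood apart from the other beads-depleted libraries for this miRNA, where it took place 143 by count against 127 in both A and C. Without beads B the log2 fold change was -0.26 (edgeR adjusted p = 0.274).

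**Figure D2:**
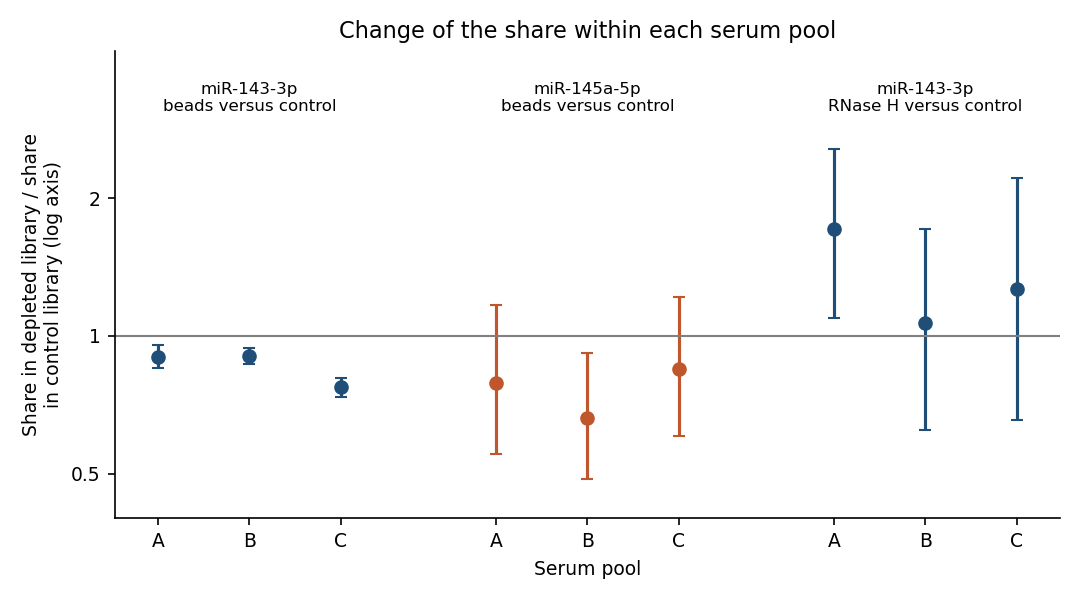
Share of the miRNA counts in a depleted library divided by the share in the control library of the same serum pool, on a log axis where 1 means no difference. Points are serum pools A, B and C, and bars are exact 95% intervals for counting error. All 6 points for beads lie below 1, from 0.663 to 0.904, and the 3 points for miR-143-3p with RNase H lie above 1, from 1.07 to 1.72.

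The ratio of the members within a library needs no scaling and asks whether the products of the cluster moved together. Control libraries held 41.4, 51.2 and 49.1 counts of miR-143-3p per count of miR-145a-5p in pools A, B and C, a mean of 47.2 ± 5.15 (SD, n = 3). Beads-depleted libraries held 47.2, 69.8 and 44.8, a mean of 53.9 ± 13.8 (SD, n = 3). The groups overlapped, and beads B was the highest library, with an exact 95% interval of 60.8 to 80.4 that lies above the intervals of beads A (41.7 to 53.7) and beads C (39.5 to 51.0). The mean log2 ratio was 0.18 higher with beads than in control libraries (exact permutation p of 0.6, adjusted p of 0.6 over 3 comparisons, where the smallest possible p is 0.1). This test ignores the pairing by pool. With signs flipped within pools, the exact p was 0.5, where the smallest possible is 0.25. Without beads B the difference was -0.017, so its direction rested on that library. Within the pools the ratio was higher with beads in A and B and lower in C.

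**Figure D3:**
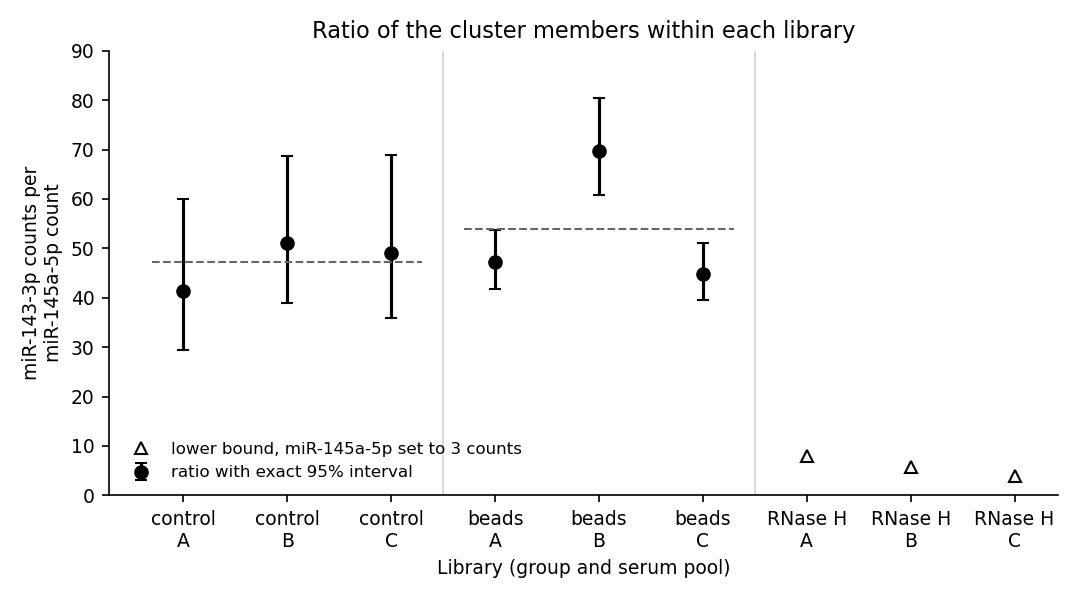
Counts of miR-143-3p per count of miR-145a-5p in each library, by group and serum pool, on a linear axis. Filled points are ratios with exact 95% intervals, dashed lines are group means, and open triangles are lower bounds for RNase H-depleted libraries with miR-145a-5p set to 3 counts. These bounds leave out the counting error of miR-143-3p. Beads B, at 69.8, is the highest of the 6 measured ratios, and the bounds of 4 to 8 lie far below all of them.

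The comparison of RNase H with control asks the same of a protocol that left few miRNA counts. miR-143-3p had 24 counts in RNase H A, 17 in B and 12 in C, which correspond to 11765, 8599 and 10008 CPM. The mean level was 10124 ± 1586 (SD, n = 3) against 7600 ± 647 in control libraries. Of the 138 miRNAs tested, 9.42% had no count with RNase H and could not lie above control. For miR-143-3p, every RNase H-depleted library lay above every control library, a pattern seen in 12.3% of the 138. The share was 1.72 times that of control in pool A (exact 95% interval 1.10 to 2.56), 1.07 times in pool B (0.622 to 1.71) and 1.27 times in pool C (0.654 to 2.22), so the intervals of B and C included equal shares. edgeR gave a log2 fold change of 0.30 with an SE of 0.21 (adjusted p = 0.397). Of the 138 tested miRNAs, 11.6% passed the threshold, and their median log2 fold change was -0.19. miR-143-3p lay 0.49 above that median with TMM factors. Size factors move all miRNAs nearly alike, so the distance was also 0.49 with those of DESeq2 and with the miRNA sum alone. The spread of its levels in RNase H-depleted libraries (coefficient of variation 15.7%) was below the 24.5% that counting error alone would give. By count it took place 18, 21 and 17. Relative to miR-16-5p it was higher with RNase H in 3 of 3 pools, with a mean log2 difference of 0.99 (exact permutation p of 0.1, the smallest possible, with the pairing by pool ignored). The study's RT-qPCR found miR-16 strongly reduced by RNase H. The share of miR-16-5p in the miRNA counts was also lower with RNase H than in control in every pool, so this value carries that fall too.

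miR-145a-5p could not be measured after RNase H. It had 0 of 2040, 0 of 1977 and 0 of 1199 miRNA counts in pools A, B and C, which allows levels of up to 1471, 1517 and 2502 CPM at 3 counts. For the summed 5216 miRNA counts, 3 counts would be 575 CPM, which is 3.58 times the pooled control level. At that control level, an average of 0.328, 0.318 and 0.193 counts would fall into libraries of these depths, 0.838 in all 3 together, and Poisson counting alone would leave all 3 without a count in 43.3% of cases. A fall of miR-145a-5p was therefore not detectable at this depth (edgeR adjusted p = 0.401). It was among the 9.42% of the 138 tested miRNAs without a count in any RNase H-depleted library. A library would need about 18680 miRNA counts for the control level to give 3 counts.

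The same limit was visible around the members in the control order. All 23 miRNAs above miR-143-3p in the mean control level had counts in all 3 RNase H-depleted libraries. Of the 112 miRNAs above miR-145a-5p, 104 had a count in at least 1 of them and 66 in all 3. Of the 459 miRNAs below miR-145a-5p that control libraries detected, 48 had a count. miR-145a-5p thus sat where detection after RNase H became sparse, while miR-143-3p sat well above that range. The 2 miRNAs next above miR-143-3p and the 2 next below it in control had 14 to 46 counts with RNase H, summed over the libraries, against 53 for miR-143-3p. The 4 such neighbours of miR-145a-5p had 0 to 5 counts, and both miRNAs directly beside it in the order had none.

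**Figure D4:**
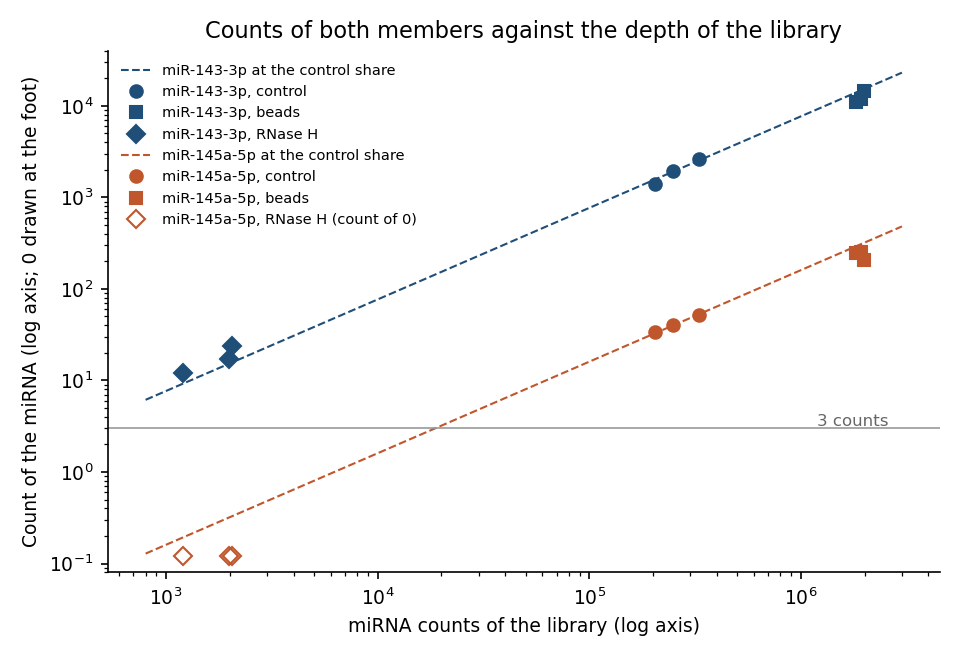
Count of miR-143-3p (blue) and miR-145a-5p (orange) against the miRNA counts of the library, both on log axes, with circles for control, squares for beads and diamonds for RNase H. Dashed lines show the count that the pooled control level gives at each depth, the grey line marks 3 counts, and open diamonds at the foot are counts of 0. The line of miR-145a-5p crosses 3 counts near 18680 miRNA counts, and the RNase H-depleted libraries hold 1199 to 2040.

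With no count of miR-145a-5p, the ratio of the members after RNase H is known as a lower bound only. With miR-145a-5p set to 3 counts, it is at least 8 in pool A, 5.67 in pool B and 4 in pool C, and the bound from the summed counts is 17.7. The control ratios of 41.4 to 51.2 lie above all these bounds. After 0.5 was added to both counts, the mean log2 ratio was 5.13 with RNase H and 5.54 in control libraries (exact permutation p of 0.3, adjusted p of 0.45), a difference set by the added 0.5 and not by counts of miR-145a-5p. With 1 added in its place the difference went from -0.41 to -1.35 (exact permutation p of 0.1, the smallest possible, with the pairing by pool ignored).

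RNase H-depleted libraries were also compared with beads-depleted libraries directly. The level of miR-143-3p was 1.90 times as high with RNase H in pool A (exact 95% interval 1.22 to 2.83), 1.18 times in pool B (0.689 to 1.89) and 1.64 times in pool C (0.848 to 2.87). Of the 263 tested miRNAs, 43.3% had no count with RNase H and could not lie above beads. For miR-143-3p, all 3 RNase H-depleted libraries lay above all 3 beads-depleted libraries, which held for 4.56% of the 263. The log2 fold change of 0.49 ± 0.24 SE did not pass (edgeR adjusted p = 0.364), in a comparison where 3.80% of the miRNAs did, 10 in all and 6 with the serum pool as a block. The miRNA passed with the size factors of DESeq2 in edgeR (log2 fold change 0.87, edgeR adjusted p = 0.0113) and with DESeq2 itself (0.87, DESeq2 adjusted p = 0.0016). The median of all tested miRNAs was -0.85 in the first of these fits, -0.47 in the second and 0.97 in DESeq2. Relative to that median miR-143-3p was at -0.092 in DESeq2 and at 1.34 in both edgeR fits, where a change of size factors moves all miRNAs nearly alike. miR-145a-5p was one of the 43.3% of tested miRNAs that had no count with RNase H (edgeR adjusted p = 0.776). The medians above include these miRNAs, whose fitted fold changes rest on no RNase H count. For miR-145a-5p the log2 fold change was -9.89 in the first edgeR fit and 0.034 in DESeq2.

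**Figure D5:**
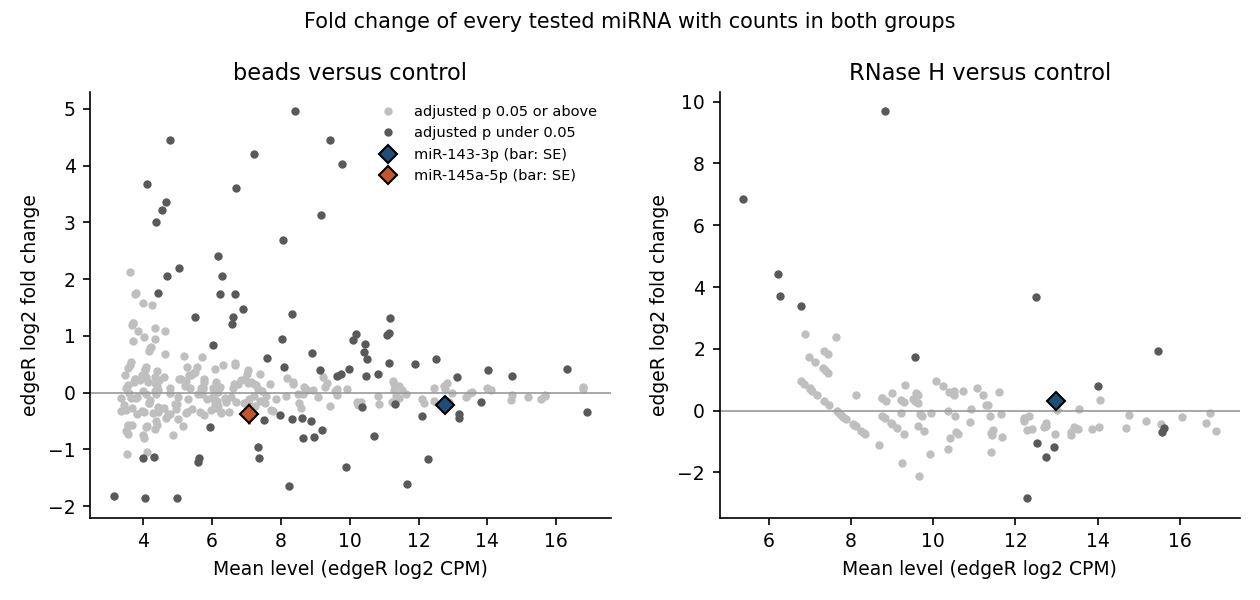
edgeR log2 fold change of every tested miRNA with counts in both groups against its mean log2 CPM with TMM factors, for beads versus control (left) and RNase H versus control (right). Dark points passed an adjusted p of 0.05, and diamonds are miR-143-3p (blue) and miR-145a-5p (orange, left panel only) with SE bars. On this scale, relative to the miRNA counts, the members lie at -0.22 and -0.37 in the left panel, and miR-143-3p lies at 0.30 in the right panel.

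By mean level, miR-143-3p stood highest with RNase H, then in control and then in beads-depleted libraries, and the step between control and beads was the sole neighbouring pair that passed the test. For miR-145a-5p, control stood above beads without passing the test, and RNase H has no place in the order. The levels of the members did not follow each other closely over the 6 control and beads-depleted libraries (Pearson r = 0.45, given as a description). Among 190 other miRNAs with at least 5 counts on average in both groups, the most similar pattern to miR-143-3p was that of MIMAT0000158 (r = 0.99), and the most similar to miR-145a-5p was that of MIMAT0000152 (r = 0.93). These values are on edgeR's log2 CPM scale with TMM factors, the libraries share their serum pools and depths, and the count tables pair these identifiers with no name. Over all 9 libraries, the closest pattern to miR-143-3p among 40 other miRNAs with at least 5 counts on average in each of the 3 groups was that of MIMAT0000248 (r = 0.81).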

How the data were processed

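The authors removed adapter sequence (Cutadapt 1.8.1), discarded reads under 15 bases and aligned the others without mismatches to GRCm38 (Bowtie 1.1.2), so reads with an edited or added base are lost. The deposited values are raw counts, 1 table of mature miRNAs (miRBase v20) and 1 of other small RNAs for each of 9 libraries. The latter served here for library totals alone. Testing used the quasi-likelihood method of edgeR 4.0.16 under R 4.3.3 (library size the miRNA sum, TMM, filterByExpr, Benjamini-Hochberg over all miRNAs tested, threshold 0.05), with 6 libraries per fit. DESeq2 1.42.0 was an alternative. An SE is the log2 fold change divided by the root of its F statistic. The main edgeR fit of each comparison was first checked on simulated counts, and the alternative fits were not. Ratios and intervals used SciPy 1.17.1, with two-sided exact permutation tests over 20 assignments, which ignore the pairing by pool. Pairing of libraries comes from the shared serum pool, and deviations of libraries of the same pool correlated with r from -0.093 to 0.16. The rule for the members uses identifiers and no measured value, but members, lists and tests were chosen with earlier results of these data known. Named miRNAs were the members, the most similar patterns by Pearson's r and miR-16-5p, the last added after its values were seen. The fixed rule also listed 44 other miRNAs by name (hairpin partners, smooth muscle growth, cell types). They are not analysed here, because the count tables give identifiers and no table used here pairs these with names.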

Additional observations from a re-analysis of the deposited data

How the results depend on the processing

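Depth limits miR-145a-5p with RNase H, where fits rest on a count of 0. No ratio without a pseudocount or from summed counts could be formed there. Of 93 alternatives for the members' fold changes, 77 kept direction and side of the threshold, but some rest on a count of 0. For the called result, miR-143-3p with beads, 8 kept both, 7 lost the call and 2 reversed the direction. Of 48 for counts of called miRNAs, 28 stayed within 1.5 times. The log2 ratio, whose test cannot pass, kept its direction in 34 of 35 (12 with beads, the rest set by pseudocounts). With all counts as library size, log2 fold changes of miR-143-3p were 3.10 with beads, -1.15 for RNase H versus control and -4.26 versus beads. miR-145a-5p was at 2.92 with beads and passed for RNase H versus beads (edgeR adjusted p = 5.69e-07). Calls were 332 with beads, 51 for RNase H versus control and 250 versus beads. This scale follows the miRNA part of all counts. Without a filter on low counts miR-143-3p was at -0.18 with beads (875 tested in place of 307). Scaled to miR-16-5p, chosen after seeing the data, it was at 0.12 with beads, at 0.99 for RNase H versus control and at 0.87 for RNase H versus beads, and miR-145a-5p with beads was at -0.047. With pseudocount 1 instead of 0.5 the log2 ratio differed by -1.35 for RNase H versus control (main -0.41) and -1.55 versus beads (main -0.59). Versus beads, miR-143-3p with RNase H was at 0.87 with both uses of the size factors of DESeq2, and miR-145a-5p had a DESeq2 adjusted p = 0.989 with a fitted direction that no count supports. The cause was not tested for these. DESeq2 gave miR-145a-5p no adjusted p for RNase H versus control. When the serum pool entered as a replicate block, RNase H versus beads had 6 calls in place of 10, and with the miRNA sum alone 5. The block changed no call of the members (miR-143-3p with beads -0.22, edgeR adjusted p = 0.0026). Leaving out a pool or library gave -0.30 to -0.15 for miR-143-3p and -0.45 to -0.26 for miR-145a-5p with beads, and -0.017 to 0.33 for the log2 ratio. For RNase H versus control it gave 0.18 to 0.71 for miR-143-3p, -0.75 to -0.13 for the log2 ratio and 4 (without pool C, control B or control C) to 30 calls (without pool B). For RNase H versus beads it gave 0.31 to 1.00, -0.92 to -0.35 and 1 (without beads A or beads B) to 22 (without RNase H B). Beads versus control had 65 to 76 calls in place of 82. Without 1 control or 1 beads library the filter dropped miR-145a-5p from the RNase H comparisons.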
